A study of Dunaliella viridis with 39 samples.

Results

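Strain dumsii of Dunaliella viridis is a single-celled green alga that lives in salt water. In its cells, 42 of 18495 loci were low without nitrogen and were also low after 51 h on glutamine, although at 3 h none was 2-fold lower in glutamine than in nitrate by the ratio used for the choice. The loci were chosen by their own measured values. Counts were divided by a size factor for each library, averaged over 3 libraries per group, and compared as log2 ratios with 10 added to each mean. A locus was kept when the ratio of nitrogen-free medium to nitrate was -2 or lower at 27 h and again at 51 h, its mean in nitrate at 27 h was at least 50 normalised counts, the ratio of glutamine to nitrate was -1 or lower at 51 h, and that ratio was above -1 at 3 h. Of the 18495 loci, 75 met the first condition, 52 met the first and second, all 52 had the required level, 50 also met the condition at 3 h, and 42 met all conditions. The other 8 of those 50 were above the threshold in late glutamine and serve here as comparison loci. The choice rests on the scale of the values: deposited TPM values in place of counts in the ratios kept 7 loci, all among the 42, with the added 10 then set against a median of 68.2 TPM and not against a median of 647 normalised counts.

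An inoculum grown on nitrate was split over 4 media, which contained 5 mM nitrate, 5 mM L-glutamine, 5 mM L-glutamate or no added nitrogen, and RNA was taken 3, 27 and 51 h later and from the inoculum itself. This gave 13 groups of 3 libraries. All cultures were of the same strain and held at 23.5 °C in unbroken light (125 µmol photons per m2 per s). Those in the 4 media were of 450 ml, and no volume is given for the inoculum. Per the labels the flasks were duplicated as technical replicates and the whole experiment was carried out 3 times. The labels name glutamate as a control for starvation in the presence of a stable amino acid that the cells do not use, and an inoculum library as the start of the treatments with the same replicate number. RNA was depleted of ribosomal RNA and sequenced as strand-specific libraries in 2 runs. Values given below in sets of 3 are in the order of replicates 1, 2 and 3.

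Green algae take up nitrate, reduce it to ammonium and build the ammonium into glutamine and then glutamate, from which other amino acids are made. When nitrogen runs out, growth and the building of the photosynthetic machinery slow, and cells of many species store starch or neutral lipid. The title of the study speaks of ammonium derived from glutamine, and ammonium, unlike nitrate, needs no reduction by the cell. The tables give the loci as numbers with no gene names and no sequences, and no function is given to any locus here.

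Total counts per library ran from 3342102 to 41114965, with a median of 10192407. In 2 libraries, nitrate at 3 h replicate 2 and glutamate at 51 h replicate 3, 18.2% and 17.5% of all reads fell on the top 10 loci, while that share was 40.4% to 59.6% for the other 37. In nitrogen-free medium at 51 h, replicate 1 had counts at 15777 loci, and no other library had fewer than 17719. Without these 3 libraries the conditions above were met by 45 loci, 41 of them among the 42. Levels below are CPM, counts relative to the library size after TMM scaling, and a level is relative to the other loci of its library. In these bulk libraries fewer cells with a transcript and less of it per cell cannot be told apart.

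By the choice itself, all 42 loci were at least 4-fold lower in nitrogen-free medium than in nitrate at 27 h and at 51 h, which held for 0.427% and 0.666% of the 17569 loci tested, and at least 2-fold lower in glutamine than in nitrate at 51 h, which held for 1.49%. On the scale of the choice, the ratio of nitrogen-free medium to nitrate at 27 h ran from -5.82 to -2.01 with a median of -2.43. At 51 h it ran from -7.92 to -2.04 with a median of -2.63. The ratio of glutamine to nitrate at 51 h ran from -4.43 to -1.005 with a median of -1.38, and at 3 h from -0.87 to 0.21 with a median of -0.01. The mean level in nitrate at 27 h ran from 106 to 10613 normalised counts.

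Some thresholds cut through a continuous range. Locus_14 was the last inside for nitrogen-free medium at 27 h, at -2.01, and Locus_1025 was the nearest outside, at -1.99. At 51 h Locus_3796 was inside at -2.04 and Locus_2568 outside at -1.97. For late glutamine Locus_3752 was inside at -1.005 and Locus_4205 outside at -0.89. The condition at 3 h left a wide gap, with Locus_6009 inside at -0.87 and Locus_159 outside at -3.27. At 3 h Locus_6009 measured 15.3, 14.4 and 9.62 CPM in glutamine and 25.4, 28.1 and 20.9 CPM in nitrate, so the groups did not overlap. No locus that met the other conditions missed the level minimum, and the lowest inside was Locus_8827 at 106 normalised counts.

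**Figure D1:**
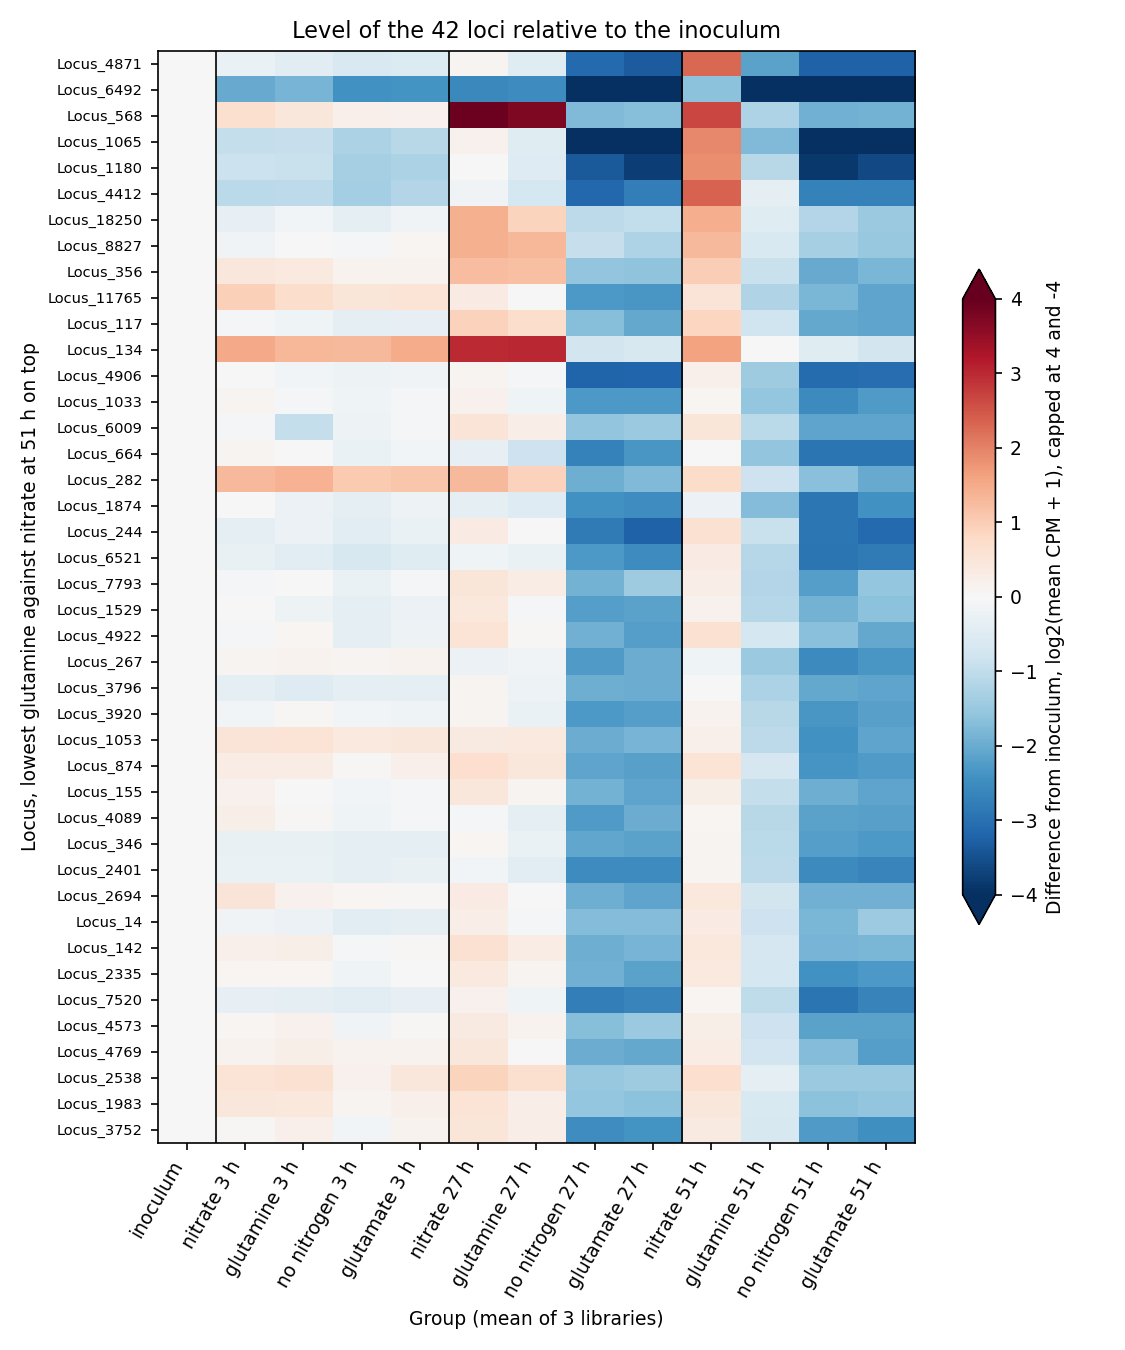
Level of each of the 42 loci (rows) in each of the 13 groups (columns, mean of 3 libraries) as the difference from the inoculum in log2(mean CPM + 1); red is above and blue below the inoculum, and colours are capped at 4 and -4. The nitrogen-free and glutamate columns at 27 and 51 h are blue, glutamine at 27 h is pale in most rows with Locus_568 and Locus_134 red and Locus_6492 blue, and glutamine at 51 h is mostly blue but paler than the starved columns.

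The mean level of the 42 loci was high in nitrate at all times and in glutamine at 3 and 27 h, and low in nitrogen-free medium and glutamate at 27 and 51 h. Averaged over the loci in each library, the level in the inoculum was 5.88 ± 0.11 log2 CPM (SD, n = 3). The 3 h libraries gave 5.88 ± 0.26 for nitrate, 5.86 ± 0.08 for glutamine, 5.65 ± 0.25 for nitrogen-free medium and 5.77 ± 0.09 for glutamate. Nitrogen-free medium lay below nitrate at 3 h in each of the 3 replicates. By 27 h the level was 6.36 ± 0.08 in nitrate and 6.07 ± 0.13 in glutamine, but 3.46 ± 0.09 in nitrogen-free medium and 3.48 ± 0.01 in glutamate. At 51 h nitrate stood at 6.50 ± 0.08, nitrogen-free medium at 3.35 ± 0.06 and glutamate at 3.39 ± 0.06. Glutamine at 51 h had left the nitrate level and stood between, at 4.72 ± 0.11. The plot of the mean level by time shows the glutamine libraries beside nitrate at 27 h and between the fed and starved media at 51 h.

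**Figure D2:**
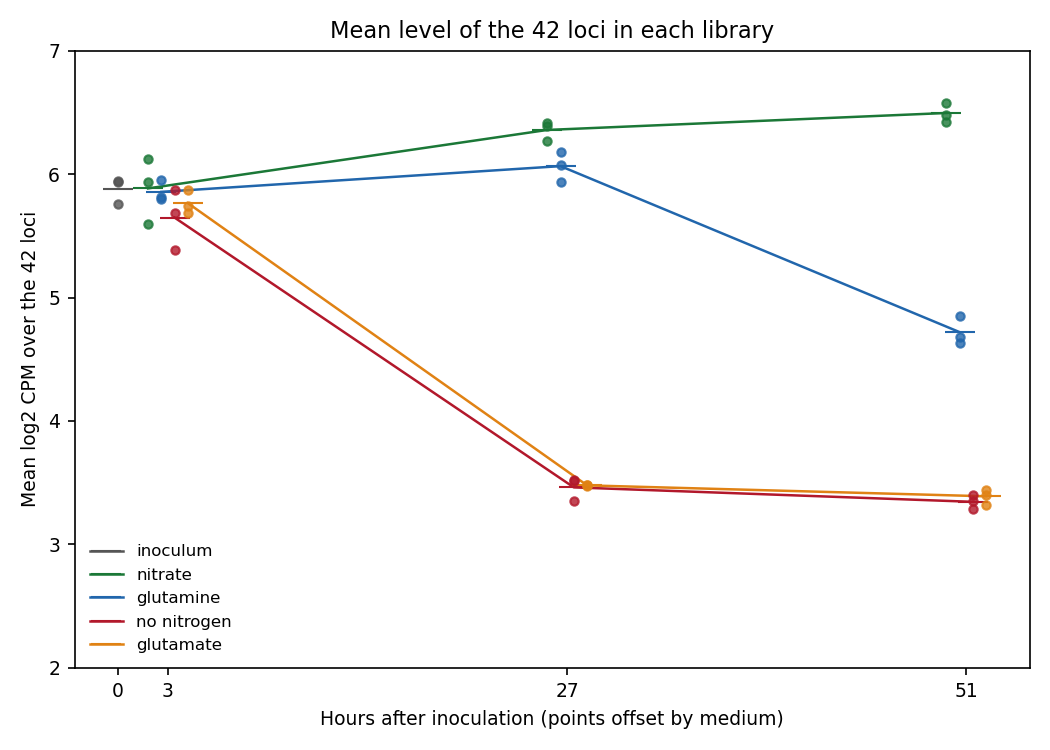
Mean log2 CPM over the 42 loci (vertical axis) in each library (points) against hours after inoculation (horizontal axis, points offset by medium); lines join the means of 3 libraries in each medium. The 3 glutamine libraries at 51 h lie at 4.63 to 4.85, below all nitrate libraries at 6.42 to 6.58 and above all nitrogen-free libraries at 3.285 to 3.402.

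As a share of all counts the 42 loci were small. They held 0.387% of the counts in the inoculum (range 0.307% to 0.454%, n = 3) and 0.469% in nitrate at 27 h (0.396% to 0.588%). Glutamine at 27 h was close to that, at 0.497% (0.397% to 0.598%). The share was 0.0872% in nitrogen-free medium (0.0626% to 0.107%) and 0.0849% in glutamate (0.0596% to 0.124%) at the same time. At 51 h it was 0.754% in nitrate (0.466% to 0.910%), 0.166% in glutamine (0.122% to 0.190%), 0.0777% in nitrogen-free medium (0.0534% to 0.0932%) and 0.122% in glutamate (0.0776% to 0.188%). The highest glutamate value there came from replicate 3, the library with the low share of its 10 most abundant loci.

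Glutamate libraries took no part in the choice, so the course of the loci in glutamate could be tested. It answers whether loci picked for their low level without nitrogen were also low beside an amino acid that the cells do not use. All 42 loci fell from 3 to 27 h in glutamate, with 0 higher, at a threshold of 0.05 on the adjusted p of edgeR's quasi-likelihood test. Of all tested loci 15.9% fell, and of the 9135 at the level minimum of the choice 27.6% fell. The log2 fold change ran from -4.66 to -0.94 with a median of -2.19, against a median of 0.04 over all tested loci, and the adjusted p from edgeR ran from 2.42e-16 to 0.00388. At each of the 42 loci all 3 libraries at 27 h lay below all 3 at 3 h, which held for 22.7% of all tested loci. The level left at 27 h was a median of 21.9% of that at 3 h, from 3.96% at Locus_1065 to 52.3% at Locus_18250.

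Locus_1065 had the lowest log2 fold change in that course. In glutamate it measured 159, 205 and 140 CPM at 3 h and 7.36, 6.29 and 6.27 CPM at 27 h, with a wide gap between the groups. Its log2 fold change was -4.66 (SE 0.25), with an edgeR adjusted p of 2.42e-16. Locus_6492 measured 32.5, 39.7 and 39.6 CPM at 3 h and 3.10, 1.66 and 3.51 CPM at 27 h. Its log2 fold change was -3.65 (SE 0.39), with an edgeR adjusted p of 4.09e-09. Locus_18250 stood at the other end, with 13.3, 16.8 and 13.2 CPM at 3 h and 8.65, 7.03 and 6.97 CPM at 27 h. The groups did not overlap there either, and the log2 fold change was -0.94 (SE 0.25) with an edgeR adjusted p of 0.00388.

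From 27 to 51 h in glutamate the loci stayed low. None of the 42 was called in either direction, where edgeR called 0.114% of all tested loci lower and 0.125% higher, and 1667 loci had an unadjusted p under 0.05. The median log2 fold change was -0.09, from -1.07 to 1.17, and at 34 of the 42 loci the 95% interval lay within 2-fold in both directions. At the other 8 the interval reached past 2-fold. DESeq2 and the fit with replicate as a block each called 1 locus, Locus_4573, lower. Its log2 fold change under the block was -0.71 (SE 0.18), with an edgeR adjusted p of 0.0493, and under DESeq2 it was -0.71 with an adjusted p of 0.044. On log2(TPM + 1) the median of all tested loci in this comparison was 0.50 and that of the 42 loci 0.46.

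Over the whole course from 3 to 51 h in glutamate all 42 loci fell again, with 19.0% of all tested loci and 33.0% of those at the level minimum called lower by edgeR. The median log2 fold change was -2.34, from -5.00 to -1.11, and the adjusted p from edgeR ran from 3.5e-17 to 2.32e-05. All 3 late libraries lay below all 3 early ones at every locus, as at 24.8% of all tested loci. Locus_244 went from 29.2, 24.4 and 19.4 CPM to 3.54, 2.04 and 2.08 CPM. The fold change there was -3.28 (SE 0.27) on the log2 scale, with an edgeR adjusted p of 5.13e-12. Without glutamate at 51 h replicate 3 and the other libraries that stand apart, all 42 loci were still called. The 27 h and 3 h glutamate libraries enter more than 1 of these comparisons, so the counts are not independent of each other.

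**Figure D3:**
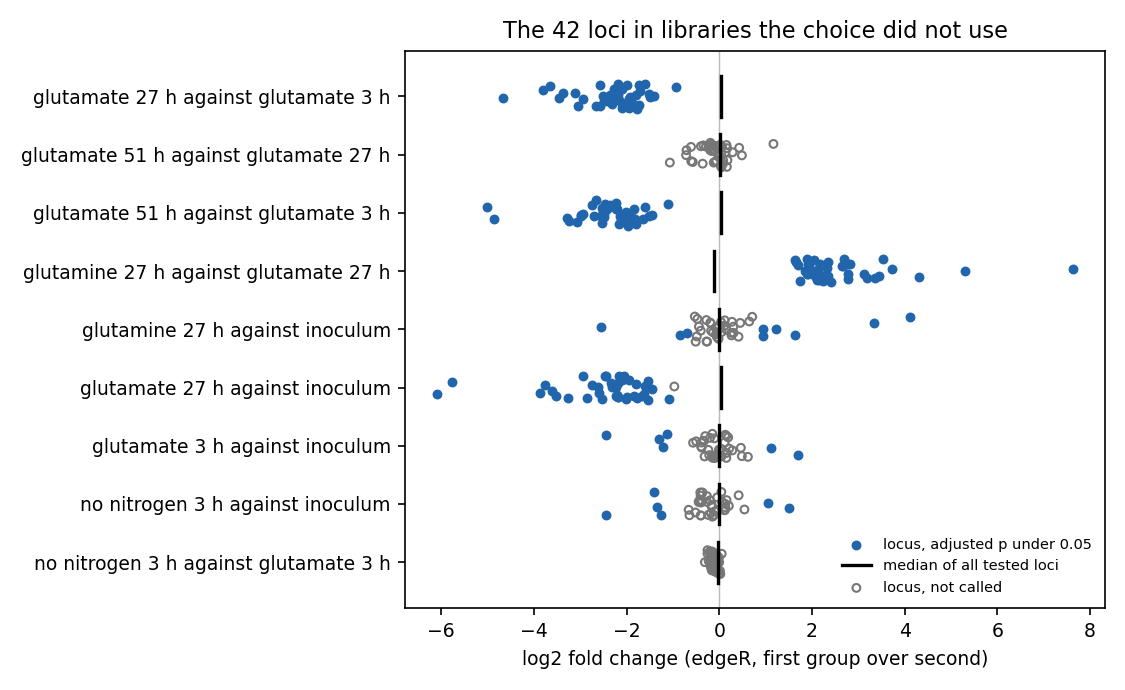
Log2 fold changes (horizontal axis, first group over second) of the 42 loci in the 9 comparisons between groups that the choice did not use (rows); filled points passed an edgeR adjusted p of 0.05, open points did not, and black bars mark the median of all tested loci. All 42 points are filled and below 0 in both glutamate courses that start at 3 h, all 42 are filled and above 0 for glutamine against glutamate at 27 h, and few are filled in the comparisons at 3 h.

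Against the inoculum, 41 of the 42 loci fell in glutamate by 27 h, where edgeR called 13.4% of all tested loci and 23.4% of those at the level minimum lower. The median log2 fold change was -2.19, from -6.09 to -0.97. All 3 glutamate libraries lay below all 3 inoculum libraries at every one of the 42 loci, as at 18.7% of all tested loci. The locus that missed the threshold was Locus_134, with 2.23, 4.05 and 4.18 CPM in the inoculum and 1.68, 2.22 and 1.68 CPM in glutamate. Its log2 fold change was -0.97 (SE 0.38), with an edgeR adjusted p of 0.0555, and the fit with replicate as a block called all 42. Locus_6492 had the lowest log2 fold change, -6.09 (SE 0.42), with an edgeR adjusted p of 7.33e-14. Its inoculum libraries measured 161, 151 and 293 CPM.

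Described beside nitrate, whose libraries did take part in the choice, glutamate had values close to those of nitrogen-free medium. At 27 h the ratio of glutamate to nitrate was -1.76 or lower at all 42 loci with a median of -2.50, and 36 of them were at least 4-fold lower, as were 0.444% of all tested loci. At 51 h the median was -2.64, and 39 were at least 4-fold lower, as were 0.672% of all tested loci. These comparisons share the nitrate libraries with the choice, and no test is given. Set directly beside nitrogen-free medium, glutamate differed by a median of 0.00 at 27 h, with all 42 loci between -0.43 and 0.46. Within 2-fold there were 17557 of 17569 tested loci, with a median of -0.002. At 51 h the median of the 42 loci was 0.01, with all between -0.46 and 0.68. Within 2-fold at that time were 17468 of 17569 tested loci, with a median of 0.05. The closeness of glutamate and nitrogen-free medium was thus shared with nearly all tested loci.

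Glutamine at 27 h was not used in the choice, and there the loci were high. Against glutamate at the same time all 42 loci were higher, where edgeR called 16.4% of all tested loci and 29.5% of those at the level minimum higher. The median log2 fold change was 2.29, a ratio of 4.89, from 1.63 to 7.64, and the median of all tested loci was -0.10. The adjusted p from edgeR ran from 1.49e-17 to 1.77e-05. At every one of the 42 loci all 3 glutamine libraries lay above all 3 glutamate libraries, as at 22.3% of all tested loci. The count was 42 of 42 in run 1 alone and in run 2 alone as well, where a group with a lone library was assumed to vary like the others.

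Single loci show how wide this gap was. Locus_568 measured 46.9, 49.7 and 65.5 CPM in glutamine and 0.387, 0.185 and 0.234 CPM in glutamate, the latter from 9 counts in all 3 libraries together. The log2 fold change was 7.64 (SE 0.46), with an edgeR adjusted p of 3.3e-15. Locus_1065 measured 244, 232 and 311 CPM in glutamine and 7.36, 6.29 and 6.27 CPM in glutamate. Its fold change was 5.31 (SE 0.26) on the log2 scale, with an edgeR adjusted p of 1.49e-17. Locus_664 was the closest of the 42 in these media, with 39.3, 25.9 and 25.4 CPM against 12.3, 12.0 and 6.08 CPM. Even there the groups were apart, with a log2 fold change of 1.63 (SE 0.28) and an edgeR adjusted p of 1.77e-05.

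Beside nitrate at 27 h the level in glutamine was slightly lower at most loci. The ratio had a median of -0.30 and ran from -0.64 to 0.10, with 37 of the 42 loci below 0, where 8767 of 17569 tested loci and 5526 of 9135 at the level minimum were below 0. None was at least 2-fold lower, as were 0.0968% of all tested loci. In CPM, glutamine at 27 h stood at a median of 80.4% of nitrate, from 63.7% at Locus_1065 to 106% at Locus_267. At 16 of the 42 loci all 3 nitrate libraries lay above all 3 glutamine libraries, as at 5.34% of all tested loci. Because the nitrate libraries at 27 h took part in the choice, these values are a description.

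Against the inoculum, most of the 42 loci were not called in glutamine at 27 h, but a larger share was called than of all tested loci. Of the 42 loci 3 fell and 6 rose, where edgeR called 3.15% of all tested loci lower and 2.33% higher. Of the 9135 loci at the level minimum, 419 were called lower and 376 higher. The median log2 fold change of the 42 loci was -0.01. At 31 of the 42 the 95% interval lay within 2-fold in both directions. With replicate as a block 11 were called, the others being Locus_117 at 0.73 and Locus_2538 at 0.65 on the log2 scale, with edgeR adjusted p values of 0.0489 and 0.0386. Locus_568 rose from 2.49, 3.63 and 3.26 CPM to the values given above, a log2 fold change of 4.12 (SE 0.33) with an edgeR adjusted p of 5.67e-11. Locus_134 rose from 2.23, 4.05 and 4.18 CPM to 32.8, 30.7 and 43.1 CPM, with a log2 fold change of 3.34 (SE 0.31) and an edgeR adjusted p of 1.99e-09. The other loci that rose, named for being few, were Locus_8827 at 1.65, Locus_356 at 1.22, and Locus_18250 and Locus_282 at 0.95 each on the log2 scale.

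Locus_6492 fell in the same comparison, from 161, 151 and 293 CPM in the inoculum to 40.5, 33.8 and 29.3 CPM in glutamine. Its log2 fold change was -2.55 (SE 0.33), with an edgeR adjusted p of 1.44e-06. Locus_664 had an adjusted p of 0.0433 by edgeR and Locus_4412 of 0.048, with log2 fold changes of -0.84 (SE 0.26) and -0.70 (SE 0.22). Locus_664 lost its call when either of inoculum replicates 1 and 2 or either of glutamine replicates 2 and 3 was left out, with log2 fold changes from -0.85 to -0.68. Without inoculum replicate 1 the calls in this comparison came to 5, and within run 1 they came to 3. In nitrate at 27 h, described with no test, Locus_568, Locus_134 and Locus_6492 stood apart from the inoculum in the same direction. Their ratios were 3.90, 2.98 and -2.56 on the scale of the choice. Locus_664 and Locus_4412 were at -0.34 and -0.16, and their nitrate libraries overlapped with the inoculum.

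Most of the 42 loci were not called against the inoculum at 3 h, but a larger share of them was called than of all tested loci. At 3 h in glutamate 4 fell and 2 rose against the inoculum, where edgeR called 0.911% of all tested loci lower and 0.729% higher. Of the 9135 loci at the level minimum, 128 were called lower and 114 higher there. At 3 h in nitrogen-free medium the same 4 fell and the same 2 rose, against 1.21% and 0.951% of all tested loci. At the level minimum 176 of 9135 loci were called lower in that medium and 136 higher. The inoculum libraries are shared by both comparisons. The loci that fell were Locus_6492, Locus_1180, Locus_4412 and Locus_1065, and those that rose were Locus_134 and Locus_282. The median log2 fold change was -0.10 in glutamate and -0.19 in nitrogen-free medium, and the 95% interval lay within 2-fold at 35 and at 33 of the 42 loci. Within run 2 alone none was called in either comparison, and within run 1 alone 3 were called in glutamate and 4 in nitrogen-free medium. On log2(TPM + 1) limma called 1 locus in each. With replicate as a block 8 were called in nitrogen-free medium, the others being Locus_4871 and Locus_6521, both lower, with edgeR adjusted p values of 0.0231 and 0.0425.

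Locus_6492 measured 32.5, 39.7 and 39.6 CPM at 3 h in glutamate and 32.7, 26.0 and 52.0 CPM in nitrogen-free medium, far below its inoculum values. The log2 fold change was -2.44 in both media (SE 0.33), with edgeR adjusted p values of 6.5e-06 and 7.87e-06. Locus_1180 was at 155, 189 and 179 CPM in the inoculum and 62.8, 80.8 and 69.9 CPM in glutamate at 3 h. Its log2 fold change was -1.29 (SE 0.23), with an edgeR adjusted p of 0.000636. Locus_4412 was at 64.0, 61.0 and 62.2 CPM in the inoculum and 17.0, 27.0 and 26.7 CPM in nitrogen-free medium. The log2 fold change there was -1.41 (SE 0.22), with an edgeR adjusted p of 9.3e-05.

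Locus_282 moved the other way, from 38.6, 51.8 and 60.7 CPM in the inoculum to 140, 96.9 and 91.7 CPM in glutamate and 117, 105 and 93.4 CPM in nitrogen-free medium. The log2 fold changes were 1.11 and 1.06 (SE 0.23 each), with edgeR adjusted p values of 0.00393 and 0.00593. Without inoculum replicate 1 the edgeR adjusted p was 0.0634 and 0.073. It was 0.0674 without glutamate replicate 1 and 0.0509 without nitrogen-free replicate 1. Nitrate at 3 h, described with no test, was also apart from the inoculum at these loci, at -2.03 for Locus_6492, -1.09 for Locus_4412 and 1.27 for Locus_282.

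At 3 h no difference between the nitrogen-free and glutamate media was detected at these loci. None of the 42 was called, as 0% of all tested loci were, while 419 of all loci had an unadjusted p under 0.05 and DESeq2 called 0 as well. The median log2 fold change was -0.10, from -0.31 to 0.05, and the 95% interval lay within 2-fold at all 42 loci. From 3 to 27 h in nitrogen-free medium, described with no test because the later libraries chose the loci, the median was -2.01. On the scale of the choice 40 of the 42 loci were at least 2-fold lower, as were 3.69% of all tested loci. The exceptions were Locus_18250 at -0.67 and Locus_8827 at -0.88. Without the added 10, Locus_8827 was also more than 2-fold lower, with a mean of 3.36 CPM and then of 1.36 CPM. From 27 to 51 h the median was -0.11, with all 42 loci between -0.63 and 0.78. Within 2-fold over those hours were 17428 of 17569 tested loci, with a median of -0.03.

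The low level in late glutamine is part of the choice and is described here by its course. Between 27 and 51 h the ratio within glutamine had a median of -1.07, from -4.95 to 0.33, and 41 of the 42 loci were below 0, as were 8752 of 17569 tested loci. At least 2-fold lower were 23 loci, as were 0.865% of all tested loci. At 41 loci all 3 libraries at 27 h lay above all 3 at 51 h, as at 14.7% of all tested loci, and the exception was Locus_4412. In CPM the level at 51 h was a median of 46.5% of that at 27 h, and the middle 50% of loci lay between 36.4% and 55.6%. From 3 to 27 h in glutamine the median had been 0.06, with 5 loci at least 2-fold higher, as were 0.996% of all tested loci.

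Nitrate over the same hours gave a median ratio of 51 h to 27 h of -0.01. Within 2-fold were 36 of the 42 loci, beside 17453 of 17569 tested loci. At least 2-fold higher at 51 h were 4 loci, Locus_4412, Locus_4871, Locus_1180 and Locus_1065, as were 0.535% of all tested loci. At least 2-fold lower were 2, Locus_134 and Locus_568, as were 0.125%. From 3 to 27 h in nitrate the median was 0.40, with 5 loci at least 2-fold higher, as were 0.484% of all tested loci. The choice used the nitrate libraries at all these times and favoured loci high in nitrate at 27 and 51 h. These values are therefore a description.

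**Figure D4:**
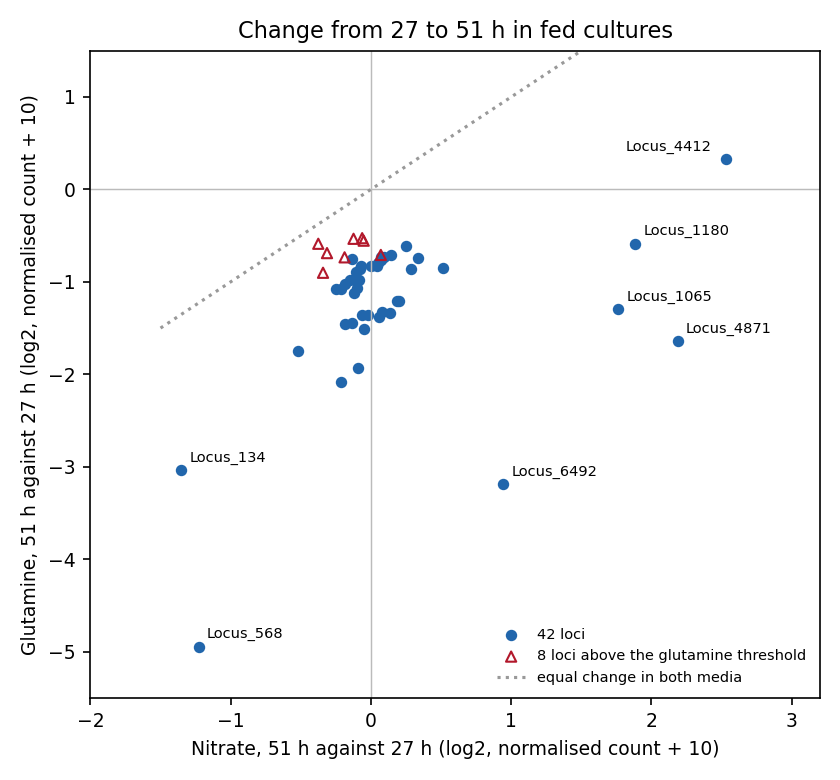
Change from 27 to 51 h in nitrate (horizontal axis) and in glutamine (vertical axis), each as log2 of normalised count + 10, for the 42 loci (filled) and the 8 comparison loci (open triangles); the dotted line marks an equal change in both media. Most of the 42 loci lie near 0 on the nitrate axis and near -1 on the glutamine axis, while Locus_4412, Locus_4871, Locus_1180 and Locus_1065 lie to the right.

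The 42 loci reached their low ratio to nitrate at 51 h by more than 1 course. At Locus_4412 the level in glutamine was 33.9, 27.3 and 52.7 CPM at 27 h and 52.1, 37.9 and 53.2 CPM at 51 h, so these groups overlap. In nitrate it was 45.0, 60.4 and 63.0 CPM at 27 h and 287, 306 and 384 CPM at 51 h. At Locus_1180 the level in glutamine was 104, 129 and 135 CPM at 27 h and 100.0, 74.96 and 67.9 CPM at 51 h, lower with no overlap and at 66.1% of the earlier mean. In nitrate it was 173, 188 and 162 CPM and then 534, 804 and 580 CPM. At Locus_4871 both media moved apart: nitrate stood at 27.6, 37.1 and 43.8 CPM and then at 120, 182 and 198 CPM, and glutamine at 19.9, 20.7 and 29.2 CPM and then at 6.37, 7.20 and 6.62 CPM.

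Locus_568 and Locus_134 were lower at 51 h in both media. Locus_568 was at 70.2, 49.4 and 64.2 CPM in nitrate at 27 h and 24.7, 24.4 and 26.6 CPM at 51 h. In glutamine it was at 46.9, 49.7 and 65.5 CPM and then at 0.554, 0.847 and 0.860 CPM, which is 1.40% of the earlier mean. The nitrogen-free libraries were lower still, at 0, 0.069 and 0.183 CPM. Locus_134 was at 31.8, 33.9 and 38.3 CPM in nitrate at 27 h and 11.5, 12.5 and 14.4 CPM at 51 h, and in glutamine at 32.8, 30.7 and 43.1 CPM and then at 2.22, 2.75 and 5.24 CPM. Its late glutamine libraries overlapped with the nitrogen-free ones at 3.48, 1.79 and 1.39 CPM.

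**Figure D5:**
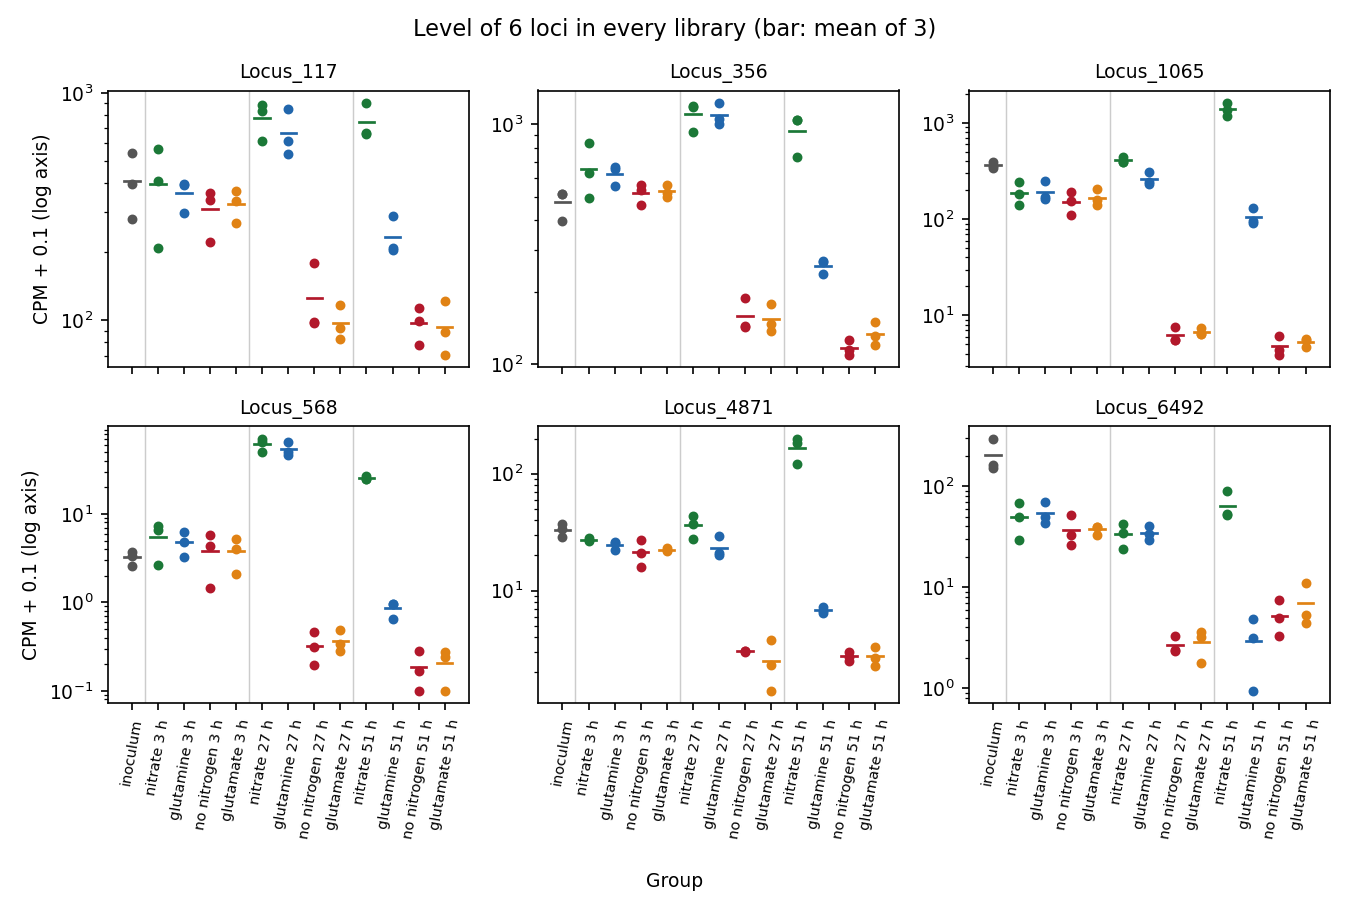
CPM + 0.1 on a log axis (vertical) of 6 loci in every library of the 13 groups (horizontal); points are libraries and bars are means of 3. Locus_117 and Locus_356 have the highest TPM in nitrate at 27 h. On the scale of the choice, Locus_1065 and Locus_568 have the lowest ratio of nitrogen-free medium to nitrate at 27 h. On that scale Locus_4871 and Locus_6492 have the lowest ratio of glutamine to nitrate at 51 h. In CPM the lowest of the 42 loci there is Locus_568, at 2.98% of nitrate. All 6 are lower in glutamine at 51 h than at 27 h.

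At 51 h the glutamine level lay between the starved and the nitrate level at most loci. At 38 of the 42 all 3 glutamine libraries were above all 3 nitrogen-free libraries and below all 3 nitrate libraries, as at 4.47% of all tested loci. The lower bound of that range was not part of the choice, but the groups were. The exceptions were Locus_134, Locus_6492, Locus_7793 and Locus_11765. The ratio of glutamine to nitrogen-free medium at 51 h had a median of 1.11, and 30 loci were at least 2-fold higher in glutamine, as were 2.41% of all tested loci. On the log2 scale of CPM, glutamine had gone a median of 53.1% of the way from the nitrate to the nitrogen-free level, from 35.5% at Locus_7520 to 128% at Locus_6492. The middle 50% of the loci lay between 47.5% and 61.6%.

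Locus_6492 was the single locus below the nitrogen-free mean. It measured 3.05, 0.847 and 4.73 CPM in glutamine at 51 h, 7.39, 3.17 and 4.90 CPM in nitrogen-free medium and 10.9, 5.24 and 4.30 CPM in glutamate. These 3 groups overlap, and the lowest glutamine value rests on 4 counts. In nitrate at 51 h it measured 52.6, 51.3 and 88.8 CPM. Beside the inoculum, the ratio of glutamine at 51 h was below 0 at all 42 loci, as at 8895 of 17569 tested loci and 4813 of 9135 at the level minimum. At 37 of the 42 all 3 glutamine libraries lay below all 3 inoculum libraries in normalised counts, as at 2100 of 17569 tested loci. Locus_134 was at -0.02, with libraries that overlap. The median ratio over the 42 loci was -1.02, and 22 of them were at least 2-fold lower, as were 1.49% of all tested loci.

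Locus_1065 spanned a wide range between nitrate and nitrogen-free medium at 51 h. It measured 1187, 1608 and 1365 CPM in nitrate and 131, 95.3 and 91.5 CPM in glutamine. In nitrogen-free medium it measured 6.08, 3.80 and 4.27 CPM and in glutamate 5.55, 5.51 and 4.58 CPM. The 4 media fall into 3 separate levels at this locus, with the starved pair overlapping. At 27 h nitrate gave 396, 446 and 394 CPM, and nitrogen-free medium gave 5.52, 5.52 and 7.55 CPM.

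Locus_117 and Locus_356, the members with the highest TPM in nitrate at 27 h, showed the same order with smaller gaps than Locus_1065. Their ratios of nitrogen-free medium to nitrate at 27 h, -2.61 and -2.77, were below the median of -2.43 over the 42 loci. Locus_117 had 732 TPM in nitrate at 27 h and Locus_356 had 315 TPM. Locus_117 measured 829, 615 and 886 CPM in nitrate at 27 h, 615, 539 and 849 CPM in glutamine, 98.1, 97.6 and 179 CPM in nitrogen-free medium and 92.5, 82.7 and 117 CPM in glutamate. At 51 h it measured 669, 661 and 901 CPM in nitrate, 207, 204 and 286 CPM in glutamine, 113, 78.2 and 99.6 CPM in nitrogen-free medium and 88.6, 70.5 and 121 CPM in glutamate. Glutamine overlapped with nitrate at 27 h and lay apart from all other media at 51 h.

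Locus_356 measured 397, 511 and 511 CPM in the inoculum. In glutamine it was at 1009, 1058 and 1228 CPM at 27 h and 237, 266 and 269 CPM at 51 h. In nitrate it was at 1192, 931 and 1186 CPM and then at 733, 1048 and 1048 CPM. The glutamate libraries measured 148, 137 and 179 CPM and then 131, 121 and 150 CPM. Against the inoculum this locus rose in glutamine at 27 h by 1.22 on the log2 scale (SE 0.19, edgeR adjusted p of 2.83e-05), and all 3 libraries lay above all 3 of the inoculum.

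In nitrate at 27 h most of the 42 loci were among the more abundant. The choice required a minimum level there and a level well above that in nitrogen-free medium, so this is partly built in. Per length, they ranged from 9.09 to 732 TPM in nitrate at 27 h with a median of 68.2 TPM, where the median was 4.33 TPM over all loci and 10.95 TPM over tested loci at the level minimum. They lay between the 69.7th and the 99.5th percentile of all loci. A relative length, taken as count over TPM with the median of 13985 loci set to 1, had a median of 0.809 over the 42 loci, from 0.209 to 2.85, against 1.14 over tested loci at the level minimum. Over the 6 groups that the choice did not use, the mean log2 CPM of the 861 pairs of loci correlated with a median Pearson r of 0.963, from 0.456 to 1.00. That describes 6 points per pair, which share their libraries, and the choice already required a shared low level in nitrogen-free medium, to which glutamate was close. The same measure was not computed for other loci. Least like the rest were Locus_134, with a median r of 0.776, Locus_568 with 0.830, Locus_18250 with 0.867 and Locus_6492 with 0.881.

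The 8 comparison loci were low in starvation by the same conditions and, by the choice, less low in late glutamine. Their ratio of glutamine to nitrate at 51 h ran from -0.89 to -0.64 with a median of -0.78, and their level there was a median of 57.5% of nitrate, against 37.6% over the 42 loci. They also sat closer to the thresholds for starvation, with medians of -2.09 at 27 h and -2.21 at 51 h. All 8 lay between the nitrogen-free and nitrate libraries at 51 h, and they had gone 28.6% to 39.3% of the way from the nitrate to the nitrogen-free level, with a median of 35.8%. From 27 to 51 h within glutamine their ratio had a median of -0.64, from -0.90 to -0.53, so they too were lower at 51 h. Since the threshold in late glutamine separated them from the 42, no test of that difference is given.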

How the data were processed

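The deposited files are read counts and TPM values for 18495 loci, each with a column for each of the 39 libraries, and 0 columns were left without a sample. Per the submitters' processing notes, FastQC, STAR, RSEM and edgeR 3.4.0 were used, with no role or order stated. Not given in the sources used here are the genome build, annotation, strand setting, filters and how the duplicate flasks entered a library, so it is unknown how reads of near-identical or overlapping loci were assigned.

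The counts, used as the authors deposited them, went into edgeR 4.0.16 (R 4.3.3). filterByExpr kept 17569 loci, including all 42 described here, and left out 926. Libraries were scaled by TMM and fitted together in 1 quasi-likelihood model with a mean per group, and p-values were adjusted by Benjamini-Hochberg over all loci tested. Tests were made in 9 comparisons among the 6 groups that the choice did not use, and all contrasts with any of the other 7 groups are described without a test. For the choice, DESeq2 size factors were taken from 14917 loci with no zero. Standard errors were derived from the fold change and the F value and are approximate. Log2 CPM used a prior count of 2. The 42 loci, the comparison loci and the tests were chosen with earlier results of these data known.

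Loci named are, in each tested comparison, the 2 called loci with the largest change in each direction at 10 CPM or more and with no overlap. Also named are the 2 with the lowest ratio in nitrogen-free medium at 27 h and in glutamine at 51 h. Those ratios are on the scale of the choice. To these come the 2 with the highest TPM and the nearest loci on either side of each threshold. Others were named after their values were seen, as ends of a range or exceptions.

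No pair of replicates was the same within counting noise, with a lowest chi-square of 5.63 per degree of freedom. A replicate number is a repeat of the experiment per the labels, and therefore pairs libraries. The mean correlation of deviations from the group mean was 0.0964 within a number and -0.0477 between numbers, and 49.6% of 234 pairs with the same number were above 0.1. Replicate numbers and runs overlap: replicate 1 is in run 1 and replicate 3 in run 2. Alternatives were RLE factors, no filter, DESeq2 1.42.0, a replicate block, a run term, each run alone, the compared libraries alone, limma 3.58.1 on log2(TPM + 1) and log2(TPM + 0.1), members under TMM scaling, leaving out libraries, and other scalings of the choice.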

Additional observations from a re-analysis of the deposited data

How the results depend on the processing

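In the 4 comparisons in which nearly all loci were called, glutamate at 27 or 51 h against 3 h and glutamine against glutamate at 27 h gave 42 in every fit that left out a library, and glutamate at 27 h against the inoculum gave 41 to 42. The fit with replicate as a block gave 42 in each of them. Within run 2 alone glutamate at 27 h against 3 h gave 40, and within run 1 alone glutamate against the inoculum gave 38. In the same order, limma called 37, 35, 42 and 36 on log2(TPM + 1) and 37, 32, 42 and 34 on log2(TPM + 0.1).

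Small counts moved more. For glutamate from 27 to 51 h the replicate block and DESeq2 each called 1 against 0. For glutamine at 27 h against the inoculum the calls came to 3 within run 1, 3 under limma at either pseudocount, and 5 to 9 when a library was left out, against 9. For glutamate at 3 h against the inoculum they came to 3 within run 1, 0 within run 2, 1 on log2(TPM + 1) and 0 on log2(TPM + 0.1), against 6. For nitrogen-free medium at 3 h they came to 0 within run 2, 1 on log2(TPM + 1) and 0 on log2(TPM + 0.1), against 6, and the replicate block gave 8. The replicate block changed calls at Locus_4573, Locus_134, Locus_117, Locus_2538, Locus_4871 and Locus_6521, as given above, and no other. A fit within a run has fewer libraries. No called value changed direction under any alternative run.

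The choice gave 37 to 46 loci when a library was left out, 48 with 1 added in place of 10, 33 with 20, 43 with TMM factors and 7 on TPM. The comparison loci came to 14 with 1 added, 0 on TPM and 6 to 13 when a library was left out, with 13 without glutamine at 51 h replicate 2. On log2(TPM + 1) the median of all tested loci was 0.64 for glutamate at 51 h against 3 h. The cause of these moves was not tested. Depth limits Locus_568 most, with 0 counts in 2 starved libraries.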
